A study of Mus musculus with 4 samples.

Results

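The nuclear-encoded subunits of the mitochondrial respiratory chain were followed in brain RNA of mice lacking the lipid transporter Mfsd2a in endothelial cells. The set was a list of 54 genes: the Nduf genes of complex I, the Sdh genes of complex II, the Uqcr genes and Cyc1 of complex III, the electron carrier Cycs, and the Cox genes of complex IV. Members were found by symbol among array probe sets that carry exactly 1 gene symbol, and each gene was read from its brightest probe set. Of the 54 genes, 53 were matched and 52 had a mean signal of at least 50 over the 4 arrays. Across the whole array, 12426 of 18194 named genes reached that level by the same rule. The study's gene filter also used 50, but on maximum expression and not on a mean. Complex I contributed 33 measured genes, complex II 4, complex III 7, cytochrome c 1 and complex IV 7.

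Cerebrum RNA was profiled on Affymetrix Mouse 430 2.0 arrays in 4 pools, with 1 array per pool. 2aECKO pups carried Mfsd2a fl/fl alleles and Tie2-cre, a driver active in endothelium that also marks blood cells, and were postnatal day 9. Their 2afl/fl controls carried the same floxed alleles without cre, also at day 9. 2aiECKO pups carried Mfsd2a fl/fl alleles and Cdh5ERT2-cre, an endothelial driver switched on by 4-hydroxytamoxifen (4-OHT) injected in the first days of life, and were day 8. Their controls, 2afl/fl 4-OHT, carried the floxed alleles without cre, received 4-OHT and were day 8. Each pool held RNA from 5 to 6 hemi-cerebrums, so a value is an average over several animals, with no spread between animals. No difference below therefore has a replicate check, and none was tested.

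The respiratory chain lies in the inner mitochondrial membrane. Complexes I and II take electrons from NADH and succinate and pass them to ubiquinone, complex III hands them to cytochrome c, and complex IV uses them to reduce oxygen, while I, III and IV pump the protons that drive ATP synthase. Most subunits are encoded in the nucleus and imported, whereas a core of hydrophobic subunits is encoded by mitochondrial DNA. Neurons depend heavily on this pathway for ATP.

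The deposited signals of the 2 pairs were on different scales. The median signal was 75.5 in 2aECKO and 74.1 in 2afl/fl, but 49.2 in 2aiECKO and 48.7 in 2afl/fl 4-OHT. Sorted log2 signals differed by at most 0.07 and 0.05 within the pairs and by up to 0.79 between the controls, so each knockout pool was set against its own control, and levels are not compared across pairs without joint normalization. Mfsd2a itself, read by 1 probe set, had signals of 410 in 2aECKO and 423 in 2afl/fl (log2 fold -0.05), and of 299 in 2aiECKO and 369 in 2afl/fl 4-OHT (log2 fold -0.30). The sources used here do not place this probe set relative to the deleted part, and Mfsd2a is also made by other brain cells, so the label of the 2aECKO pool is not checked by it. Brain cell markers were present on all arrays, with summed signals of 16 neuron markers between 52233 and 70839.

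Respiratory chain subunits lay slightly below the control in 2aECKO, nearly as a block. The median log2 fold of the 52 genes was -0.08 in 2aECKO over 2afl/fl, against a median of -0.01 over all 12426 genes measured. Of the 52 genes, 51 had a log2 fold below 0, a side on which 51.5% of all genes lay. The folds were small: 4 subunits were lower by at least 1.1-fold, where 13.4% of all genes were, and none was higher by that much, where 13.3% were. No subunit was past a log2 fold of 0.32 in either direction, the fold used as a threshold in the study's own gene filter, a mark passed by 3.48% of all genes. The subunits lay close together, from -0.26 for Uqcrc1 to 0.05 for Ndufa12, with a robust SD (scaled median absolute deviation) of 0.04 against 0.12 over all genes.

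In 2aiECKO the same genes were centred near 0. Their median log2 fold over 2afl/fl 4-OHT was 0.01, against 0.00 over all genes. Only 16 of the 52 genes lay below 0, where 50.9% of all genes did. None was lower by at least 1.1-fold, where 9.61% of all genes were, and 1, Ndufa2, was higher by that much, where 11.5% were. None was past a log2 fold of 0.32, where 2.37% of all genes were. The folds ran from -0.09 for Ndufa10 to 0.14 for Ndufa2, with a robust SD of 0.03 against 0.10 over all genes.

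**Figure D1:**
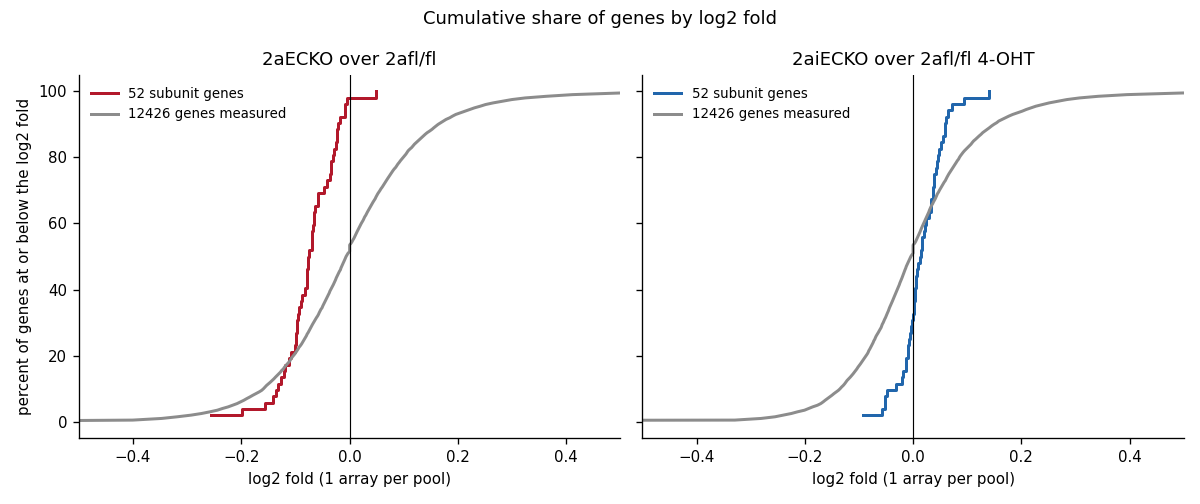
Cumulative percent of genes (vertical axis) at or below each log2 fold (horizontal axis, drawn between -0.5 and 0.5), for the 52 subunit genes in colour and the 12426 genes measured in grey, with 2aECKO over 2afl/fl on the left and 2aiECKO over 2afl/fl 4-OHT on the right. The 2aECKO curve of the subunits is steep and lies almost wholly below 0 (51 of 52), while the 2aiECKO curve crosses 0 with 16 of 52 genes below it.

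Most subunits were read by bright probe sets, and in 2aECKO genes read by bright probe sets leaned the same way to a lesser degree. The median mean signal was 3005 over the subunits and 328 over all genes, and 51 of the 52 subunits were above 1000. Among the 2250 genes whose mean signal was 1000 or more, the 2aECKO median was -0.02 on the log2 scale with 56.7% below 0, and the 2aiECKO median was -0.01 with 54.9% below 0. Within the subunits, brightness and fold were nearly unrelated (Spearman's rho -0.07 in 2aECKO and -0.07 in 2aiECKO over 52 genes that share their libraries).

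The 2 models differed for nearly every subunit, though the difference was not tested. The log2 fold in 2aECKO was lower than that in 2aiECKO for 50 of 52 subunits, the exceptions being Ndufv3 and Uqcrc2, while this held for 51.3% of all genes. The median difference between the folds was -0.08 over the subunits and 0.00 over all genes. Of the subunits, 34 lay below 0 in 2aECKO and above 0 in 2aiECKO, 16 lay below 0 in both, 1 (Ndufa12) lay above 0 in both, and Ndufa9 had the same signal on both arrays of the 2aiECKO pair. These joint counts were not made over all genes, so how unusual they are is not known. Of all genes, 51.5% lay below 0 in 2aECKO and 50.9% in 2aiECKO. Which subunits were lowest in one model said little of the other: Pearson's r between the folds was 0.12 and Spearman's rho 0.06 over the 52 genes. Cre driver, onset of deletion, 4-OHT, age and array scale all differ between the pairs and cannot be told apart.

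**Figure D2:**
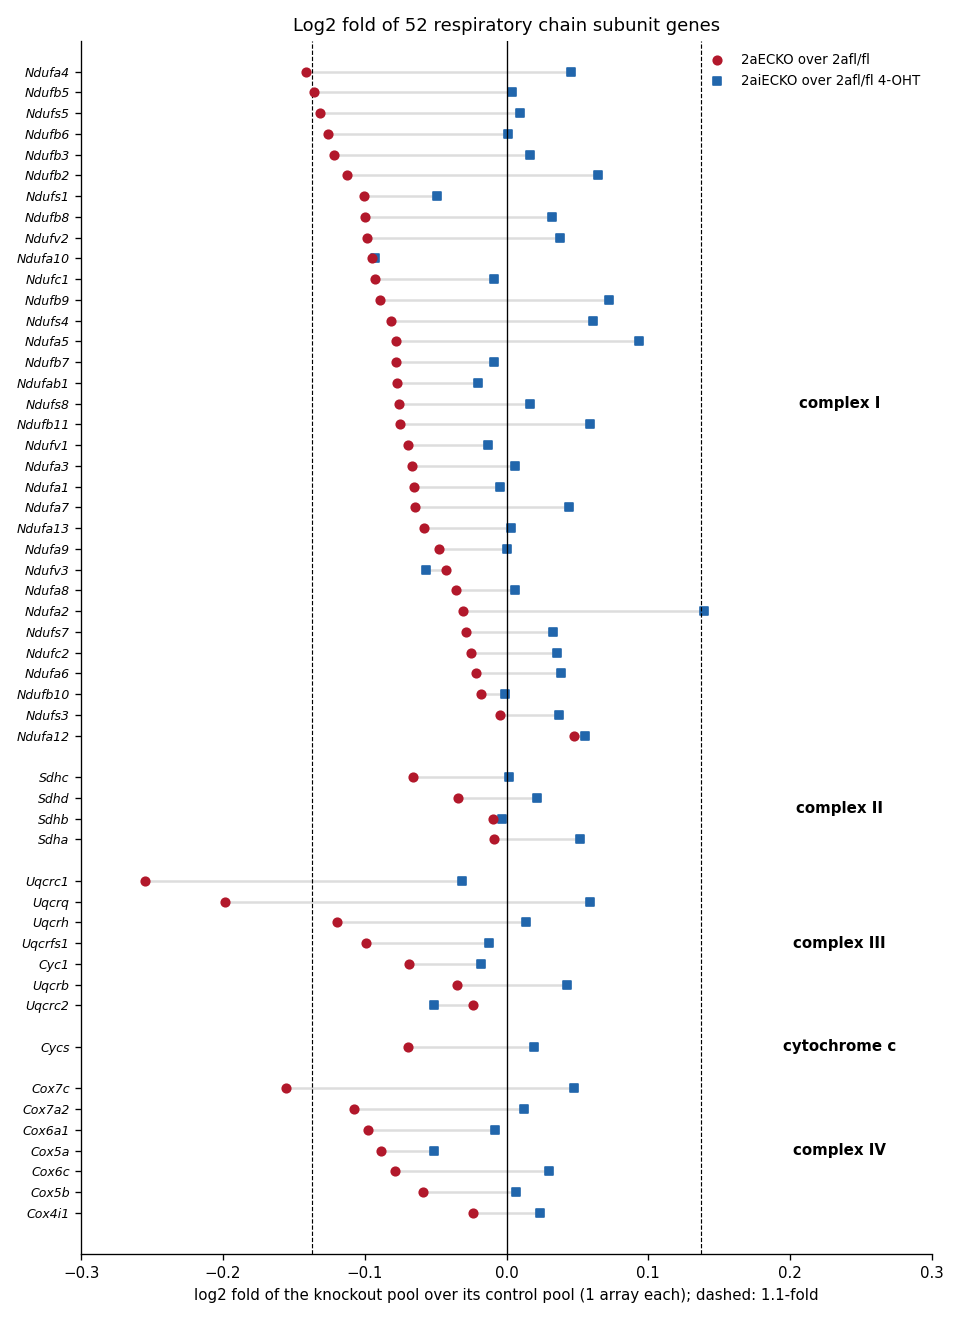
Log2 fold (horizontal axis) of each of the 52 subunit genes, grouped by complex and ordered by the 2aECKO value. Red circles show 2aECKO over 2afl/fl, blue squares 2aiECKO over 2afl/fl 4-OHT, and dashed lines 1.1-fold. Red points lie left of 0 for all genes but Ndufa12, and blue points gather around 0.

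Promoter sequence was examined for features the genes share apart from their role in the chain. The factors NRF1 and YY1 and the ETS-family factor GABP (NRF2) are known regulators of respiratory genes. Windows from 250 bases before to 50 bases after the start site were taken from RefSeq on GRCm38.p6, and 44 windows of 42 measured subunit genes were matched. Both strands were searched for GCGCNTGCG (NRF1), CCGGAAG (ETS) and AAGATGGCG (YY1). The NRF1 letters were found in 12 of the 44 windows (27.3%), against 6.31% of all 32851 windows. The ETS letters were found in 8 (18.2%) against 8.86%, and the YY1 letters in 4 (9.09%) against 1.40%. At least 1 of the 3 stood in 22 of the 44 windows, against 14.9% of all windows. The CCAAT box (CCAAT) and the TATA box (TATAAA) were searched too and were not more frequent in the subunits' windows. They were found in 29.55% and 11.36% of these windows, against 37.41% and 13.62% of all windows. The windows compared were not matched for base composition. The NRF1 letters are nearly palindromic, so 1 site can match on both strands at overlapping positions, and a match is not evidence of binding. The segments below show matches lying wholly before the start site, from subunits of complexes I to IV and cytochrome c. The 2aECKO log2 folds of these genes ran from -0.13 for Ndufs5 to 0.05 for Ndufa12. No match to the YY1 letters is shown. Uqcrc1, the lowest member in 2aECKO, held the NRF1 letters, and its match is not shown either. Capitals mark the matched letters on either strand, and each segment is given on the gene's strand.
Ndufs5, NRF1 letters, chr4:123718260-123718298 (-): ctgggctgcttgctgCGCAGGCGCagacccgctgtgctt
Ndufb6, ETS letters, chr4:40279632-40279668 (-): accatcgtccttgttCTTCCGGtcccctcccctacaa
Uqcrh, ETS letters, chr4:116075071-116075095 (-): gaggagtatgccgcaCTTCCGGcca
Cox6a1, NRF1 letters, chr5:115349096-115349134 (-): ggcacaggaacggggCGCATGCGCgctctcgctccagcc
Cycs, NRF1 letters, chr6:50566607-50566645 (-): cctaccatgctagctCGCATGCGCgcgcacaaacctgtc
Sdha, NRF1 letters, chr13:74350271-74350309 (-): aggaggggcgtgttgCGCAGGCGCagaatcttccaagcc
Ndufa12, NRF1 letters, chr10:94198900-94198938 (+): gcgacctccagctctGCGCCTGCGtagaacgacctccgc
In 2aECKO the median log2 fold was -0.07 over 21 genes with at least 1 of the NRF1, ETS and YY1 motifs and -0.09 over 21 genes without. For the NRF1 letters alone it was -0.04 over 11 genes with them and -0.08 over 31 without, for the ETS letters -0.08 over 8 genes and -0.08 over 34, and for the YY1 letters -0.06 over 4 genes and -0.08 over 38. Ndufs5 and Ndufa12, near opposite ends of complex I in 2aECKO with log2 folds of -0.13 and 0.05, both held the NRF1 letters. The factors' own transcripts were also read. Nrf1 had signals of 102 in 2aECKO and 110 in 2afl/fl (log2 fold -0.12), and of 78.7 in 2aiECKO and 87.2 in 2afl/fl 4-OHT (-0.15). Gabpa, the DNA-binding subunit of GABP, had 0.04 in 2aECKO and 0.07 in 2aiECKO on the log2 scale, and Yy1 had 0.00 and 0.07.

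Complex I, the NADH dehydrogenase, is the largest complex and supplied most of the set. Its 33 genes had a median log2 fold of -0.08 in 2aECKO, with 32 below 0, and of 0.02 in 2aiECKO, with 9 below 0. Its parts lay close to each other. The NADH module, which takes up electrons, had medians of -0.06 in 2aECKO and 0.04 in 2aiECKO over 9 genes. The quinone module, which passes electrons to ubiquinone, had medians of -0.05 and 0.03 over 5 genes. The membrane arm, which pumps protons, had medians of -0.08 and 0.01 over 18 genes, and all 18 lay below 0 in 2aECKO while 6 did in 2aiECKO. Its largest 2aECKO difference was at Ndufb5 and its smallest at Ndufb10, with log2 folds of -0.14 and -0.02.

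Ndufa4, named for complex I but now known as a subunit of complex IV, was the lowest Nduf gene in 2aECKO. Its signals were 5204 in 2aECKO and 5740 in 2afl/fl, a log2 fold of -0.14, and 4858 in 2aiECKO and 4708 in 2afl/fl 4-OHT, a log2 fold of 0.05. It lies just inside the 1.1-fold mark with a ratio of 0.907, and Ndufb5, an accessory subunit of the membrane arm, lies just outside it with a ratio of 0.910. Ndufa12, an accessory subunit beside the NADH module, was the only member above its 2aECKO control. Its brightest probe set gave 4098 in 2aECKO and 3965 in 2afl/fl (0.05), and 3214 in 2aiECKO and 3093 in 2afl/fl 4-OHT (0.06). That probe set can hybridize to related sequences. The gene's other bright probe sets, also of less specific design, had log2 folds of -0.02 and -0.05 in 2aECKO. The place of Ndufa12 above 0 in 2aECKO thus rests on 1 probe set.

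Ndufa2, an accessory subunit of the NADH module, had the highest fold in 2aiECKO. It gave 2464 in 2aiECKO and 2237 in 2afl/fl 4-OHT, a log2 fold of 0.14, against 2687 in 2aECKO and 2745 in 2afl/fl, a log2 fold of -0.03. Its probe set, the gene's only one, is of a design that can read several transcripts. Ndufa10, an accessory subunit of the membrane arm, was the lowest in 2aiECKO and one of the few that lay lower by a like amount in both models. It gave 3175 in 2aECKO and 3391 in 2afl/fl (log2 fold -0.09), and 2520 in 2aiECKO and 2687 in 2afl/fl 4-OHT (-0.09). A dimmer probe set of Ndufa10 gave -0.07 and 0.05, so its 2aiECKO direction differs between probe sets.

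The catalytic core of complex I lay within the range of its accessory subunits. Ndufv1, which carries the NADH site, had a 2aECKO log2 fold of -0.07 and a 2aiECKO log2 fold of -0.01. Ndufs1, which carries iron-sulfur clusters, had -0.10 and -0.05. Ndufs3, a core subunit of the quinone module, was nearly level in 2aECKO at 0.00, with 2625 in 2aECKO and 2634 in 2afl/fl, and had 0.04 in 2aiECKO. Ndufs7 and Ndufs8, core subunits that carry iron-sulfur clusters, had -0.03 and -0.08 in 2aECKO and 0.03 and 0.02 in 2aiECKO.

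Complex II, succinate dehydrogenase, had the median nearest to 0 in 2aECKO. It is encoded wholly in the nucleus, pumps no protons and also serves the citric acid cycle. Its 4 genes had a median log2 fold of -0.02 in 2aECKO, all below 0, and of 0.01 in 2aiECKO, with 1 below 0. Sdha, the flavoprotein, gave 2509 in 2aECKO and 2524 in 2afl/fl (-0.01), and 1753 in 2aiECKO and 1691 in 2afl/fl 4-OHT (0.05). A dimmer, less specific probe set of Sdha gave log2 folds of -0.12 and -0.06, so the gene's closeness to 0 depends on the probe set. Sdhb, the iron-sulfur subunit, gave 3190 in 2aECKO and 3210 in 2afl/fl (-0.01), and 3029 in 2aiECKO and 3036 in 2afl/fl 4-OHT (0.00). Sdhc, a membrane anchor, was the lowest of the complex with 1519 in 2aECKO and 1590 in 2afl/fl (-0.07), and gave 1212 in 2aiECKO and 1210 in 2afl/fl 4-OHT (0.00). A dimmer, less specific probe set of Sdhc gave log2 folds of 0.03 and 0.06, so its 2aECKO direction differs between probe sets.

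Complex III, the cytochrome bc1 complex, held both subunits with the lowest folds in 2aECKO. Its 7 genes had a median log2 fold of -0.10 in 2aECKO, all below 0, and of -0.01 in 2aiECKO, with 4 below 0. The 2aECKO median depended on the probe sets used: it was -0.060 without those of less specific design, against -0.078 for complex I and -0.084 for complex IV, and -0.085 with the mean of all probe sets, against -0.094 for complex IV. Uqcrc1, a core protein of the complex, was the lowest member of the whole set. It gave 2897 in 2aECKO and 3458 in 2afl/fl, a ratio of 0.838 and a log2 fold of -0.26, lower than all but 3.11% of genes measured. In 2aiECKO it gave 2977 against 3042 in 2afl/fl 4-OHT, a log2 fold of -0.03. Uqcrc1 has 1 probe set, so no other reads the gene.

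Uqcrq, a small accessory subunit of complex III, came next. It gave 2671 in 2aECKO and 3066 in 2afl/fl (log2 fold -0.20), and 2853 in 2aiECKO and 2739 in 2afl/fl 4-OHT (0.06). Its brightest probe set is of a less specific design and its others lie below the minimum signal. Uqcrc2, the partner core protein of Uqcrc1, lay near its control in both models. It gave 2937 in 2aECKO and 2985 in 2afl/fl (-0.02), and 2686 in 2aiECKO and 2783 in 2afl/fl 4-OHT (-0.05), the lowest of the complex in 2aiECKO, while its other probe set gave 0.02 and 0.02. The catalytic subunits Uqcrfs1, the Rieske iron-sulfur protein, and Cyc1, cytochrome c1, had -0.10 and -0.07 in 2aECKO and -0.01 and -0.02 in 2aiECKO. Cycs, the carrier between complexes III and IV, had log2 folds of -0.07 and 0.02, and its other bright probe sets gave -0.18 and -0.11 in 2aECKO.

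Complex IV, cytochrome c oxidase, was read from some of the brightest probe sets. Its 7 genes had a median log2 fold of -0.09 in 2aECKO, all below 0, and of 0.01 in 2aiECKO, with 2 below 0. Cox4i1, a regulatory subunit, was nearest to 0 in 2aECKO with 7023 in 2aECKO and 7139 in 2afl/fl (-0.02), and gave 6540 in 2aiECKO and 6434 in 2afl/fl 4-OHT (0.02). Cox5a, which lies beside it, gave 6536 in 2aECKO and 6951 in 2afl/fl (-0.09), and 5897 in 2aiECKO and 6110 in 2afl/fl 4-OHT (-0.05), the lowest of the complex in 2aiECKO. The other probe sets of Cox5a had log2 folds of 0.01 and 0.08 in 2aiECKO. Cox7c, a small membrane subunit, gave 98.0 in 2aECKO and 109 in 2afl/fl (-0.16), and 80.5 in 2aiECKO and 77.8 in 2afl/fl 4-OHT (0.05). It was by far the dimmest measured member, with a mean signal of 90.5, and so the nearest above the minimum of 50. Ndufb4, the only matched member below that minimum, had a mean signal of 17.5, with 20.7 in 2aECKO, 19.6 in 2afl/fl, 16.6 in 2aiECKO and 13.9 in 2afl/fl 4-OHT. Ndufs6 had no probe set with exactly 1 symbol and is not analysed here.

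**Figure D3:**
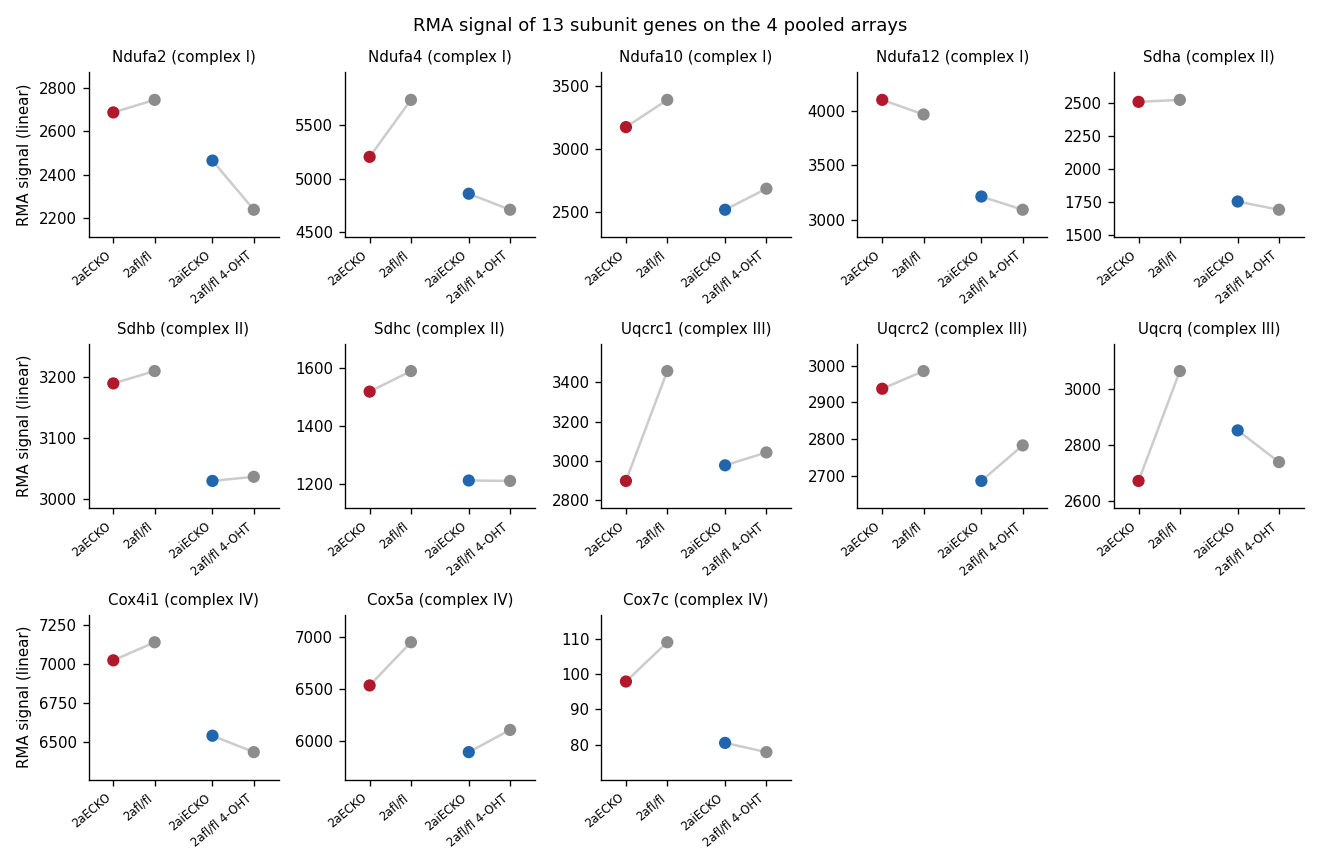
RMA signal (vertical axis, linear, a separate range not starting at 0 in each panel) of 13 subunit genes on the 4 pooled arrays, with each knockout pool left of its control and a line joining each pair. The 2aECKO point lies below its control in every panel but that of Ndufa12, by the most for Uqcrc1, while the 2aiECKO points lie on either side of theirs. The 2 pairs are on different scales.

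The complexes overlapped in their folds. In 2aECKO, complex II ran from -0.07 to -0.01, complex I from -0.14 to 0.05, complex IV from -0.16 to -0.02 and complex III from -0.26 to -0.02. With 4 to 33 genes per complex and 1 array per pool, the order of the medians (III, IV, I, II from low to high) was not tested, and the place of complex III in it changed with the choice of probe sets. In 2aiECKO the medians of the complexes lay between -0.01 and 0.02.

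Probe sets not used to represent a gene gave the same picture. For 31 of the measured subunits, 50 further probe sets had a mean signal of at least 50. Their median log2 fold was -0.07 in 2aECKO, with 44 (88.0%) below 0, against 54.4% of the 9159 such probe sets of all genes. In 2aiECKO it was 0.03, with 13 of the 50 below 0, against 4584 of those 9159. These probe sets read the same RNA pools, so they speak to the probe and not to replication. Of the 40 subunits whose brightest probe set is of specific design, all 40 lay below 0 in 2aECKO and 15 did in 2aiECKO.

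**Figure D4:**
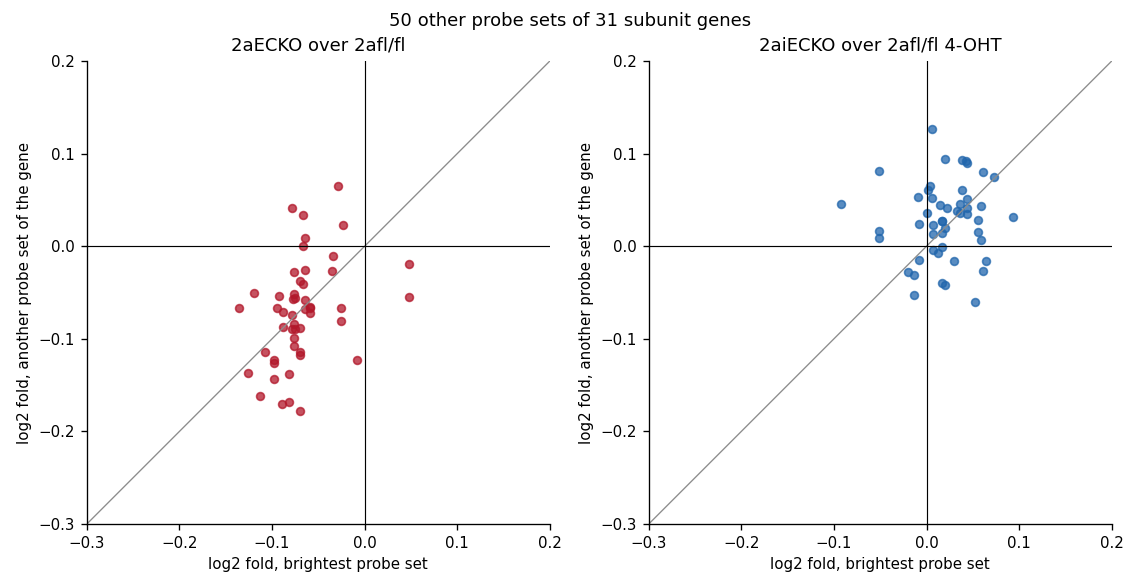
Log2 fold of 50 further probe sets of 31 subunit genes (vertical axis) against that of the gene's brightest probe set (horizontal axis), for 2aECKO over 2afl/fl on the left and 2aiECKO over 2afl/fl 4-OHT on the right, with the line of equality in grey. In 2aECKO most points lie at the lower left (44 of the 50 further probe sets below 0), and in 2aiECKO most lie above the horizontal line (13 of 50 below 0).

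Lists of neighbouring mitochondrial genes had medians on the same side in 2aECKO. The counts below stand beside 51.5% of all genes below 0 in 2aECKO and 50.9% in 2aiECKO. The 15 genes of ATP synthase, which uses the proton gradient, had a median log2 fold of -0.08 in 2aECKO with 11 below 0, from -0.16 for Atp5g1 to 0.04 for Atp5g2, and of -0.01 in 2aiECKO with 8 below 0. The 38 assembly factors of the chain, which are not part of the finished complexes, had -0.07 with 33 below 0 and -0.02 with 23 below 0. Ndufaf5, an assembly factor of complex I, was the lowest of them in both, with 474 in 2aECKO and 565 in 2afl/fl (-0.25), and 540 in 2aiECKO and 586 in 2afl/fl 4-OHT (-0.12). The 16 genes of the citric acid cycle and pyruvate dehydrogenase had -0.08 with 13 below 0 and -0.01 with 10 below 0, with Pdha1 lowest at -0.15 in 2aECKO and Suclg2 highest in both at 0.20 and 0.35. The 48 genes of the mitochondrial ribosome had -0.05 with 38 below 0 and -0.01 with 28 below 0. ND5, the 1 mitochondrially encoded subunit that could be matched, had signals of 10814 in 2aECKO and 10919 in 2afl/fl (-0.01), and of 7887 in 2aiECKO and 7662 in 2afl/fl 4-OHT (0.04).

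Among 16 regulators of mitochondrial biogenesis the medians on the log2 scale were -0.05 for 2aECKO and -0.02 for 2aiECKO. Ppargc1a, a coactivator of respiratory genes, was the lowest of them in both models. It gave 729 in 2aECKO and 875 in 2afl/fl (-0.26), and 411 in 2aiECKO and 490 in 2afl/fl 4-OHT (-0.26).

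Cytosolic ribosomal proteins and glycolysis were read for comparison. The 27 cytosolic ribosomal protein genes had median log2 folds of -0.01 in 2aECKO with 15 below 0 and -0.01 in 2aiECKO with 15 below 0. They too lay close together, with a robust SD of 0.05 in 2aECKO and 0.07 in 2aiECKO. None was lower or higher by at least 1.1-fold in either model. The 14 genes of glycolysis had -0.08 in 2aECKO and -0.07 in 2aiECKO, with 12 below 0 in each, so they lay below the control in both models. Pfkl, a phosphofructokinase subunit, was lowest in both with -0.21 and -0.17, and Aldoc, an aldolase found mainly in astrocytes in brain, was highest with 0.25 and 0.26 and also stands among the astrocyte markers.

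Markers of cell types and of RNA class also differed between the pools, and their part in the subunits' folds was not tested. The 16 neuron markers had a median log2 fold of -0.11 in 2aECKO with 12 below 0, and summed signals of 66585 in 2aECKO and 70839 in 2afl/fl. In 2aiECKO they had -0.05 with 14 below 0, and sums of 52233 in 2aiECKO and 54523 in 2afl/fl 4-OHT. The 13 astrocyte markers had medians of 0.21 and 0.26, with sums of 31468 in 2aECKO, 28012 in 2afl/fl, 23393 in 2aiECKO and 19676 in 2afl/fl 4-OHT. The 11 microglia markers had 0.08 and 0.56, the 12 oligodendrocyte lineage markers 0.02 and 0.16, and the 12 endothelial markers 0.04 and -0.10. Of 10 red cell markers 2 were measured, and they lay on opposite sides in the models: Alas2, an enzyme of heme synthesis, had signals of 120 in 2aECKO and 57.9 in 2afl/fl (1.05, the highest fold of all genes measured), and of 25.8 in 2aiECKO and 36.8 in 2afl/fl 4-OHT (-0.51), and Hba-a2, an alpha globin, had log2 folds of 0.01 and -0.19. The 9 nuclear-retained RNAs had 0.41 and 0.19, with sums of 29500 in 2aECKO, 23777 in 2afl/fl, 14918 in 2aiECKO and 13686 in 2afl/fl 4-OHT. Among them is the sex-dependent Xist, with log2 folds of 0.16 and 0.25. The study used both sexes, and the mix of sexes in each pool is not known here. RNA integrity differed little within a pair, with ratios of the 3' to the 5' Actb control probe sets of 1.30 in 2aECKO, 1.28 in 2afl/fl, 1.22 in 2aiECKO and 1.20 in 2afl/fl 4-OHT. In bulk tissue, fewer cells of a type and less RNA per cell cannot be told apart.

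**Figure D5:**
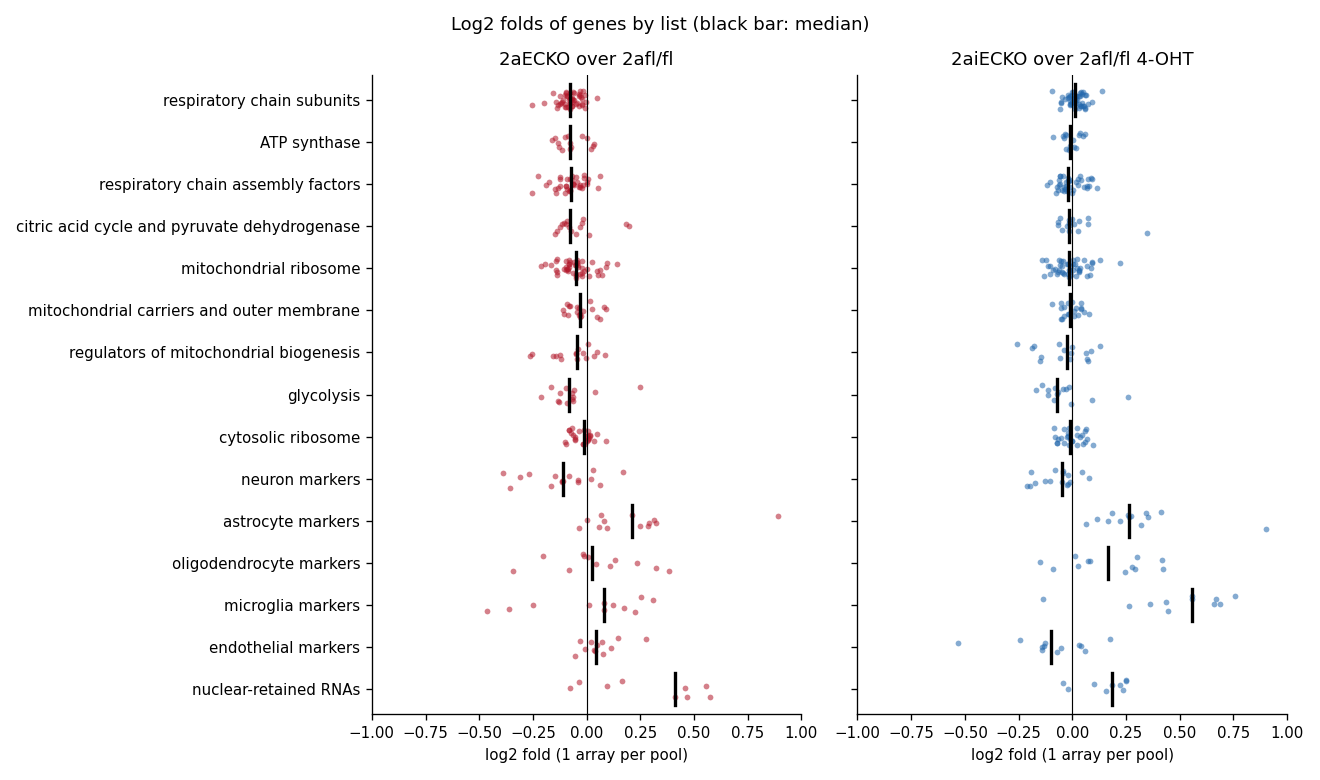
Log2 fold (horizontal axis) of single genes, as points, in the subunit set and 14 other gene lists, with the list's median as a black bar, for 2aECKO over 2afl/fl on the left and 2aiECKO over 2afl/fl 4-OHT on the right. Vertical scatter within a list carries no meaning. The subunits form a narrow cloud with medians of -0.08 and 0.01, and the glial and nuclear-retained lists spread more widely.

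The controls of the 2 pairs give a measure of how far such values can lie apart between pools without cre. After quantile normalization of all 4 arrays together, 2afl/fl 4-OHT over 2afl/fl had a median log2 fold of 0.03 over the 52 subunits, with 24 below 0, and of 0.06 over 12415 genes, with 40.1% below 0. Single subunits ran from -0.40 for Cycs to 0.29 for Ndufa8. Their robust SD was 0.15, wider than in either knockout comparison, against 0.24 over all genes in this control comparison. These controls differ in age, 4-OHT and original scale.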

How the data were processed

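Equal amounts of RNA from hemi-cerebrums were pooled by genotype and hybridized to 1 array per pool. The authors deposited 1 linear intensity per probe set and array, made by robust multichip averaging (RMA), that is with background correction and quantile normalization. For this step the paper's methods give the affy package and the submitters' processing notes give Partek 6.6, and which was used is not known. Precision is limited by the number of arrays.

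Intensities were put on the log2 scale. In the platform annotation 34958 of 45101 probe sets carry 1 gene symbol, 932 carry several and 9211 are unnamed here. Symbols were updated through gene identifiers of RefSeq on GRCm38.p6. A log2 fold is knockout pool minus its own control pool. A label of the 2aiECKO sample, its source name, says 2aECKO, but its title and its genotype say 2aiECKO, which was followed. The members and gene lists were chosen with earlier results of these data known, from textbook roles. Signals on all arrays are given for the lowest and highest member of each complex in each comparison and for members past 1.1-fold. Of other lists, the lowest and highest genes are named for some and the rest are given by count and median. Other genes named (core subunits, probe set examples, motif factors) were chosen after their values were seen.

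With 1 array per pool there was no test. Alternatives tried were averaging all probe sets of a gene, no less specific probe sets, a loess trend removed (fraction 0.3), the median fold centred, a minimum signal of 100 or none, and the other control or the mean of controls after quantile normalization of all arrays. Python 3.11.15 was used with pandas 2.3.3, numpy 2.4.6, statsmodels 0.14.6 and, for plots, matplotlib 3.10.9. The median of the folds was tested on simulated shifts, and the counts were not checked there.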

Additional observations from a re-analysis of the deposited data

Results flagged for a closer look

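The following values lay on opposite sides of 0 in the 2 models, each read from 1 array per pool, and the difference was not tested. The median log2 fold over the 52 subunits was 0.089 lower in 2aECKO than in 2aiECKO (difference -0.089). For complex I the difference was -0.092, for complex II -0.033 and for complex IV -0.101. Among single subunits it was -0.170 for Ndufa2, -0.187 for Ndufa4, -0.258 for Uqcrq and -0.204 for Cox7c.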

How the results depend on the processing

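No paired analysis was possible because each condition has 1 array, and for the same reason no replicate could be left out. Of 10 alternatives, 9 bear on the whole set, and under these the median log2 fold of the subunits stayed between -0.113 and -0.059 in 2aECKO and between 0.012 and 0.038 in 2aiECKO, with 38 to 51 and 11 to 20 genes below 0. Of 130 values for the set and its complexes 118 stayed within the spread of the subunits' folds or within 1.5 times the count. For subunits lower by 1.1-fold in 2aECKO (4), the count was 2 with the mean of all probe sets, 2 without less specific probe sets, 13 against the mean of both controls and 22 against the other control. For subunits higher by 1.1-fold in 2aiECKO (1), it was 0 without less specific probe sets, 2 with no minimum signal, 3 against the mean of controls and 14 against the other control. Against the other control, complex II in 2aECKO had a median of -0.074 and complex III -0.201. Complex III in 2aiECKO turned from -0.012 to 0.044 against the other control and 0.024 against the mean of controls. The other control differs in age and 4-OHT. Single named subunits were judged by the wider robust SD over all genes, 0.12 in 2aECKO and 0.10 in 2aiECKO. Many of their folds are smaller than this, so a value that stayed within this SD could still change side of 0. Ndufa12 in 2aECKO did so, from 0.048 to -0.027 with the mean of all probe sets. Of the values of named subunits, 211 stayed within this SD and 11 moved beyond it. All 11 had a control exchanged, among them Sdha in 2aECKO at 0.275 against the other control. Placing Ndufa4 in complex IV moved none. Probe-set choice left 51 subunits measured with the mean of all probe sets, 47 without less specific ones, 53 with no minimum and 51 at a minimum of 100.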

Other observations

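Subunit genes and isoforms outside the set were also read. Of these, 9 were measured, and their median on the log2 scale was -0.10 for 2aECKO and -0.02 for 2aiECKO. Uqcr11, a small subunit of complex III, was the lowest in 2aECKO with 3092 in 2aECKO and 3588 in 2afl/fl (log2 fold -0.21), and had 2889 in 2aiECKO and 2919 in 2afl/fl 4-OHT (-0.02). Ndufa4l2, a paralog of Ndufa4 known to be induced by hypoxia, was the lowest in 2aiECKO with 84.4 in 2aiECKO and 104 in 2afl/fl 4-OHT (-0.30), and had the same signal on both arrays of the 2aECKO pair. Cox6b2, a subunit isoform known from testis, was the highest in both, with log2 folds of 0.26 and 0.15 at signals between 60.5 and 113. Mitochondrial carriers and outer membrane proteins, 20 genes, had medians of -0.03 in 2aECKO with 14 below 0 and -0.01 in 2aiECKO with 11 below 0.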
